A study of Mus musculus with 11 samples.

Results

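Expression of 53 genes of the mitotic spindle, the kinetochore and the condensin complexes was followed in alveolar macrophages (AMs) of mice with and without a Cre transgene aimed at floxed retinoid X receptor genes. The genes were chosen by name as parts of the machinery that separates chromosomes, with earlier results of these data known. All 53 were among the 12932 genes of the deposited table. By role they comprise 12 kinesins, 12 kinetochore and centromere genes, 5 spindle checkpoint genes, 6 genes of the mitotic kinases and the chromosomal passenger complex, 3 genes of sister chromatid separation, 8 genes of spindle assembly and cytokinesis, and 7 genes of condensin and mitotic chromosomes. RNA was taken from 40000 sorted AMs for each library, and the mice were 9 weeks old. Mature AMs were taken from control mice that carry floxed Rxra and Rxrb alleles and no Cre (CD11cCre- Rxrabfl/fl, the mAM_WT group, n = 4), and from mice in which Cre is driven by the CD11c promoter (CD11cCre+ Rxrabfl/fl, the mAM_KO group, n = 4). The third group, Imm_KO (n = 3), holds CD11b+ immature AMs from the same CD11cCre+ Rxrabfl/fl genotype, and no library of such cells from control mice was analysed here. In Imm_KO against mAM_WT, genotype and cell state therefore differ together and cannot be told apart. All groups share the C57BL/6J background and the floxed alleles. CD11c is also made by dendritic cells, so deletion is not limited to AMs, and mice of both sexes were used in the study. The study left mAM_KO replicate 4 out of its comparisons and gave no reason, so tests were run on the other 10 libraries and the value of that library stands beside them. Each library was described as an individual biological replicate.

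In a dividing cell, kinetochores assembled on centromeric chromatin capture spindle microtubules, and the spindle checkpoint holds back the anaphase-promoting complex until every chromosome is attached. Kinesin motors and microtubule bundling proteins build the spindle, condensins and topoisomerase II compact and untangle the chromosomes, and the chromosomal passenger complex and centralspindlin guide the cut between the daughter cells. Most genes of this machinery are transcribed mainly in the G2 and M phases. AMs are known to renew themselves by local division in the adult lung, where GM-CSF and TGFβ sustain them.

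The libraries held 16659960 to 37873532 reads counted on genes, which the deposited values give back as whole numbers. Values are CPM, a gene's reads over the size of its library after scaling by the trimmed mean of M-values (TMM) method, and each includes 0.5 read added by the authors. Ranges given for mAM_KO include replicate 4 unless replicates 1 to 3 are named. All 8 AM markers tested had a row, and their summed CPM was 16559 to 21978 in mAM_WT, 20670 to 26916 in mAM_KO, and 22082 to 23788 for Imm_KO. Chil3 made up most of that sum. In Imm_KO against mAM_WT, Chil3 was called higher (0.40 on the log2 scale), Pparg was not called (0.14), and the other 6 were called lower, by −6.68 (Krt79), −4.76 (Marco), −3.71 (Siglecf), −2.45 (Fabp4), −1.65 (Car4) and −0.19 (Itgax). Krt79 (−1.72) and Fabp4 (−1.45) were also called lower in mAM_KO against mAM_WT. Siglecf fell from between 244 and 264 CPM in mAM_WT to between 19.3 and 19.7 CPM in Imm_KO, and SiglecF was part of the sorting gate. Rxra, one of the floxed genes, was at 310.2 to 379.5 CPM in mAM_WT, 334 to 419 CPM in mAM_KO and 283 to 305 CPM in Imm_KO, and Rxrb was at 51.4 to 72.1, 39.3 to 55.3 and 31.9 to 35.2 CPM, so reads of both were present in every library. In mAM_KO against mAM_WT, Rxra was at 0.00 and Rxrb at −0.37 on the log2 scale, neither called. Both were called lower in Imm_KO against mAM_WT, Rxra at −0.24 and Rxrb at −0.82. Loss of the receptors is not shown by these values alone. The study itself reported efficient deletion of both genes in mature and immature AMs from relative mRNA levels. Where reads fall within each gene was not analysed here.

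Many promoters of G2 and M phase genes are known to carry a cell cycle homology region (CHR), a short element bound by the DREAM and MuvB complexes, often near the transcription start and downstream of CCAAT boxes bound by NF-Y. RefSeq promoters of build GRCm38.p6, each 250 bases before to 50 bases after a start, were found for 47 of the 53 genes, in 52 windows. The CHR core TTTGAA was searched on both strands, so that TTCAAA counts as the same match. The 100 bases before the start are printed for 8 members of different roles whose match lies wholly in that stretch, 5′ to 3′ along the gene, with the match in capitals.
Kif11 (chr19:37376282-37376381, + strand): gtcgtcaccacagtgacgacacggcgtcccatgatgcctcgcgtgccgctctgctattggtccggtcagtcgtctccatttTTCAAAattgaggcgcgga
Kif22 (chr7:127042421-127042520, - strand): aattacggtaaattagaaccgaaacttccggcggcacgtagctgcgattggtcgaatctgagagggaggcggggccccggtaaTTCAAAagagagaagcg
Cenpn (chr8:116921640-116921739, + strand): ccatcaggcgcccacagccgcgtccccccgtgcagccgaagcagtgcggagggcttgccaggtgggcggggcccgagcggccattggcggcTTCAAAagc
Cdc20 (chr4:118437344-118437443, - strand): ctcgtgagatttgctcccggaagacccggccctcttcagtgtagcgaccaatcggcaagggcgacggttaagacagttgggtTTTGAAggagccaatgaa
Espl1 (chr15:102296193-102296292, + strand): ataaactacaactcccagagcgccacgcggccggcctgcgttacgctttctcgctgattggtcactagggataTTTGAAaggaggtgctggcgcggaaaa
Ckap2l (chr2:129297213-129297312, - strand): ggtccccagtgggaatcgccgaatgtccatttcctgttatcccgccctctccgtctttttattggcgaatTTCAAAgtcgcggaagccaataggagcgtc
Ncapg (chr5:45669825-45669924, + strand): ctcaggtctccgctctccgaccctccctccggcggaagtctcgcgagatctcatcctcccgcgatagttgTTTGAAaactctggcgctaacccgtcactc
Top2a (chr11:99024190-99024289, - strand): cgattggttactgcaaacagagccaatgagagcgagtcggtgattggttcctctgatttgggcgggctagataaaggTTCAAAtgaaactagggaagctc

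The first base of the match lay 19 bases before the start in Kif11, 17 in Kif22, 9 in Cenpn, 18 in Cdc20, 27 in Espl1, 30 in Ckap2l, 30 in Ncapg and 23 in Top2a. Over the whole 300-base window, TTTGAA was found in 34 of the 47 genes and in 69.2% of the member windows, against 17.9% of all 32851 promoters. Within 50 bases of the start on either side, it was found in 61.5% of the member windows and in 4.94% of all promoters. CCAAT, on either strand, was found in 76.9% of the member windows and in 37.4% of all promoters. By role, TTTGAA was held by 10 of 11 kinesins with a promoter and 6 of 7 spindle assembly and cytokinesis genes. It was also held by 5 of 6 condensin and mitotic chromosome genes and 3 of 4 genes of mitotic kinases and the passenger complex. The shares were lower for the spindle checkpoint (3 of 5), kinetochore and centromere genes (6 of 11) and sister chromatid separation (1 of 3). A match describes the letters in the window and does not show binding.

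**Figure D1:**
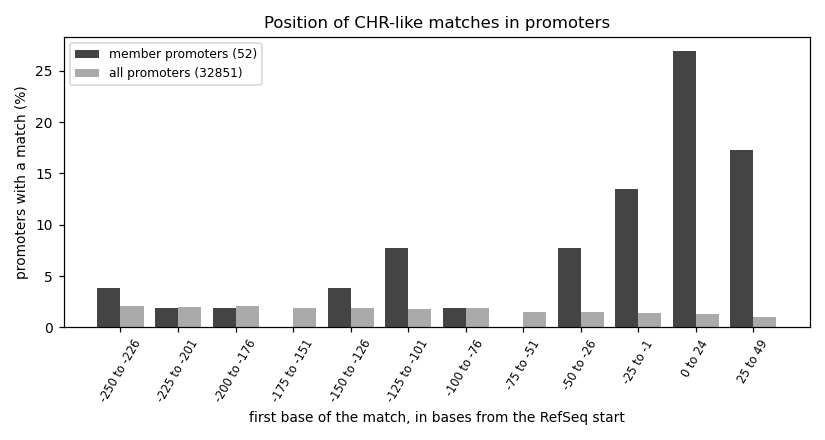
Share of promoters with a CHR-like match whose first base lies in each 25-base bin, by distance from the RefSeq start (negative values are before it), for the 52 member promoters (dark bars) and all 32851 promoters (light bars). The dark bars reach 26.9% in the bin from 0 to 24 and 13.5% in the bin from −25 to −1, where the light bars stand at 1.31% and 1.38%.

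All 53 genes fell in Imm_KO against mAM_WT, while none was called in mAM_KO against mAM_WT. The median log2 fold change of the 53 genes was −3.21 in Imm_KO against mAM_WT, from −4.86 (Spc24) to −0.61 (Smc4), against −0.00 over the 12889 genes tested. A gene counts as called at an adjusted p (p-adj) under 0.05 in limma with Benjamini-Hochberg adjustment over all of these. Of all genes tested in this comparison, 25.3% were called lower and 22.8% higher. For every member, each Imm_KO library lay below each mAM_WT library, as was so for 26.4% of all genes tested. Against mAM_KO, 52 of the 53 genes fell in Imm_KO, with a median of −3.05 over all 53, where 20.2% of all genes were called lower and 17.7% higher. The Imm_KO libraries lay below all 4 mAM_KO libraries in 52 genes, and in 22.6% of all genes tested. The exception to both was Cenpa, at −0.31 ± 0.15 (SE, p-adj = 0.122), whose 95% interval reached from −0.64 to 0.01. Both comparisons share the Imm_KO libraries, and those of Imm_KO and of mAM_KO with mAM_WT share the control libraries.

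The size of the fall differed widely between the genes. In Imm_KO against mAM_WT, 32 genes were lower by over 8-fold, 10 of them by over 16-fold, 12 by 4-fold to 8-fold, and 9 by under 4-fold. The 9 were Kif22, Cenpa, Cenpk, Bub1b, Mad2l1, Incenp, Racgap1, Smc2 and Smc4, listed after their values were seen. The mean CPM left in Imm_KO was a median of 11.7% of the mAM_WT mean, from 4.51% for Kif2c to 65.2% for Smc4. In 11 genes every Imm_KO library was under 1 CPM, and 28 genes were at 1 CPM or more in all 3, whereas 52 genes were at 1 CPM or more in all 8 mAM libraries. Cenpm, a centromere protein, was the exception at 0.748 CPM in mAM_KO replicate 3, and it was the only member without a read in any library, Imm_KO replicate 2.

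**Figure D2:**
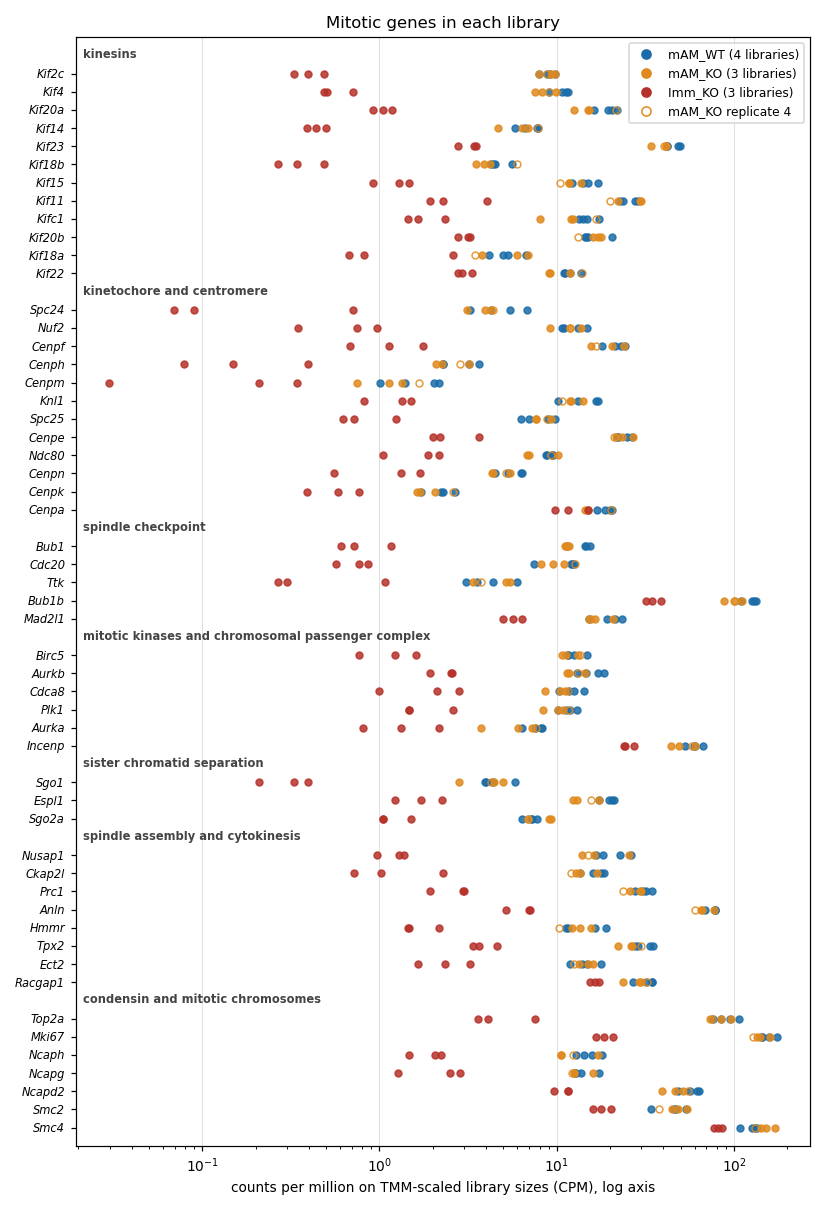
CPM of each of the 53 genes (rows, grouped by role) in each library on a log axis, with mAM_WT in blue, mAM_KO in orange, mAM_KO replicate 4 as an open orange circle and Imm_KO in red. The red points stand to the left of all others in 52 rows, and overlap mAM_KO in the Cenpa row, where Imm_KO replicate 4 is at 15.0 CPM; values include 0.5 read.

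Summed over the 53 genes, mAM_WT libraries held 1260.2 to 1514 CPM, mAM_KO libraries 1146 to 1398 CPM and Imm_KO libraries 289 to 306 CPM. The sums of mAM_WT and mAM_KO overlap, and the Imm_KO sums lie far below both. Composition differed as well. Smc4 alone made up 8.56% to 10.4% of the sum in mAM_WT and 10.7% to 12.4% in mAM_KO, against 26.6% to 27.9% in Imm_KO, while kinesins made up 12.9% to 14.1% in mAM_WT and 6.48% to 6.51% in Imm_KO. In bulk RNA, fewer dividing cells and less RNA of these genes per cell cannot be told apart.

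**Figure D3:**
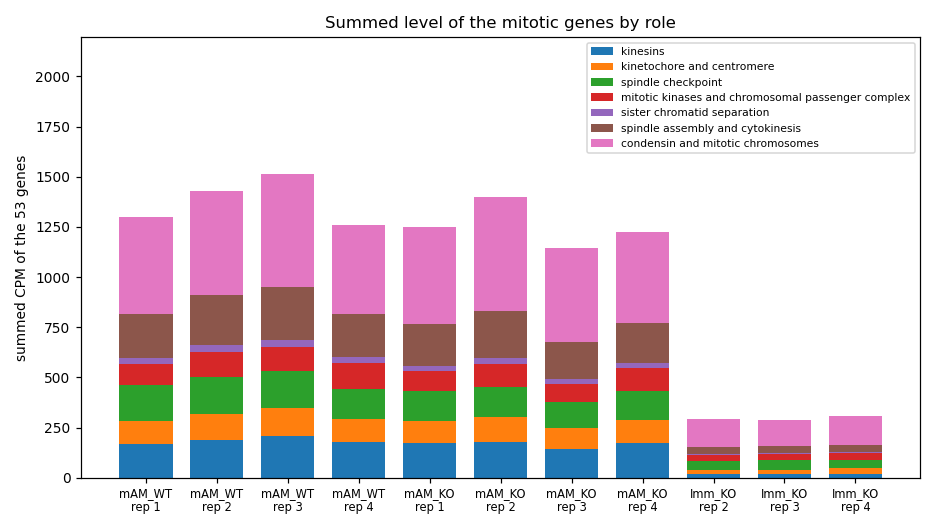
Summed CPM of the 53 genes in each library (bars), split by role (colours), with a vertical axis that starts at 0. The 8 mAM libraries reach between 1146 and 1514 CPM and the 3 Imm_KO libraries between 289 and 306 CPM, with condensin and mitotic chromosome genes taking 35.3% to 37.2% of the mAM_WT bars and 44.9% to 48.1% of the Imm_KO bars.

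Markers of other myeloid cells also differed between the groups. The monocyte marker Ccr2 was at 79.0 to 86.4 CPM in Imm_KO, against 8.91 to 14.0 CPM in mAM_WT and 10.4 to 23.2 CPM in mAM_KO. Vcan, also listed for monocytes, was at 1.76 to 3.23 CPM in Imm_KO, within reach of the 1.89 to 3.16 CPM in mAM_WT and the 1.31 to 1.78 CPM in mAM_KO. Cd163 and Cx3cr1, 2 of 4 interstitial macrophage markers listed, summed to 0.713 to 1.23 CPM in mAM_WT, 1.61 to 9.09 CPM in mAM_KO and 113.1 to 126.0 CPM in Imm_KO. Clec9a and Zbtb46, 2 of 6 dendritic cell markers, summed to 5.40 to 7.24 CPM, 5.45 to 8.12 CPM and 20.7 to 24.1 CPM, and 4 of 5 neutrophil markers to 6.38 to 11.2 CPM, 8.57 to 14.2 CPM and 18.0 to 25.8 CPM. Cx3cr1 made up most of the interstitial sum in Imm_KO. For T cells, NK cells, eosinophils, neutrophil precursors, alveolar type 2 cells, endothelial cells and fibroblasts, 0 listed genes had a row, while 1 of 4 B cell, 1 of 3 club and ciliated cell and 2 of 3 erythroid genes had one, each list at 7.64 CPM or less in sum. Stress genes of tissue handling overlapped between groups, at 267 to 348 CPM in mAM_WT, 296 to 474 CPM in mAM_KO and 296 to 322 CPM in Imm_KO. The part of these cell types in the lower mitotic genes of Imm_KO was not tested.

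Kinesins walk along or take apart microtubules, and those listed here separate the spindle poles, line up the chromosomes or act in the midzone. All 12 fell in Imm_KO against mAM_WT, with a median of −3.66. The highest mean over the 10 libraries was that of Kif23 (chr9:61915905-61946774 in GRCm38, as all positions of genes here, from GENCODE vM21), the motor subunit of centralspindlin. Kif23 was at 41.9, 48.3, 49.9 and 41.7 CPM in mAM_WT replicates 1 to 4, 41.1, 41.5 and 34.05 CPM in mAM_KO replicates 1 to 3, 40.5 CPM in mAM_KO replicate 4, and 2.77, 3.41 and 3.49 CPM in Imm_KO replicates 2 to 4. All Imm_KO libraries were far below the others, and all 4 mAM_KO libraries were below the lowest mAM_WT library. Its log2 fold change was −3.82 ± 0.12 (SE, p-adj = 1.30e-10) in Imm_KO against mAM_WT and −0.23 ± 0.12 (SE, p-adj = 0.288) in mAM_KO against mAM_WT.

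The largest fall among the kinesins was in Kif2c (chr4:117159639-117182639), which depolymerizes microtubules at centromeres and helps to correct faulty attachments. The values of Kif2c were 7.97, 9.15, 9.78 and 8.81 CPM in mAM_WT replicates 1 to 4, 9.26, 9.84 and 7.95 CPM in mAM_KO replicates 1 to 3, 8.82 CPM in mAM_KO replicate 4, and 0.328, 0.487 and 0.394 CPM in Imm_KO replicates 2 to 4. The mAM groups overlapped, and all Imm_KO libraries were under 1 CPM, with 5 to 10 reads each. Kif2c changed by −4.48 ± 0.21 (SE, p-adj = 3.49e-09) in Imm_KO against mAM_WT. Kif4, a chromosome-bound motor, followed with −4.25, and Kif20a, which brings passenger proteins to the midzone, with −4.22. Kif11, the motor that pushes the spindle poles apart, fell by 3.29 on the log2 scale. The smallest falls were in Kif22 (−1.99), which moves chromosome arms, and Kif18a (−2.21), which dampens chromosome movement. Kif18a was at 2.59, 0.673 and 0.814 CPM in Imm_KO replicates 2 to 4, and its log2 fold change was −2.82 without Imm_KO replicate 2. A share of 33.6% of the 60-base windows of Kifc1 transcripts is found in other genes, and its fold change of −3.07 is uncertain to that extent.

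Kinetochore and centromere genes also fell together, all 12 in Imm_KO against mAM_WT, with a median of −3.41. Cenpe (chr3:135212537-135273611), a kinesin that carries chromosomes to the spindle equator, had the highest mean. Cenpe was at 21.8, 25.03, 26.7 and 22.2 CPM in mAM_WT replicates 1 to 4, 21.6, 26.96 and 23.3 CPM in mAM_KO replicates 1 to 3, 21.1 CPM in mAM_KO replicate 4, and 1.997, 2.20 and 3.65 CPM in Imm_KO replicates 2 to 4. The mAM_WT and mAM_KO libraries lay in the same range, and the Imm_KO libraries were about an order of magnitude lower. Cenpe changed by −3.24 ± 0.19 (SE, p-adj = 2.22e-08) in Imm_KO against mAM_WT and by 0.00 ± 0.19 (SE, p-adj = 1) in mAM_KO against mAM_WT.

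Spc24 (chr9:21755442-21760303), a subunit of the NDC80 complex that holds microtubules at the kinetochore, had the largest log2 fold change. Spc24 was at 3.24, 4.28, 5.42 and 6.80 CPM in mAM_WT replicates 1 to 4, 4.27, 3.93 and 3.13 CPM in mAM_KO replicates 1 to 3, 4.38 CPM in mAM_KO replicate 4, and 0.0894, 0.0696 and 0.709 CPM in Imm_KO replicates 2 to 4. Imm_KO replicate 4 stood above the other two, with 13 reads against 1 and 1. The log2 fold change was −4.86 ± 0.65 (SE, p-adj = 4.43e-05) in Imm_KO against mAM_WT, −5.91 without Imm_KO replicate 4, −4.24 without replicate 3 and −2.20 with a pseudocount of 1. By the mean CPM left in Imm_KO, Cenpf (5.49% of mAM_WT) and Nuf2 (5.54%) were lower than Spc24 (5.86%). The other NDC80 subunits changed by −2.49 (Ndc80), −4.28 (Nuf2) and −3.26 (Spc25), and Knl1, the scaffold that binds checkpoint proteins, by −3.56. Of the inner kinetochore genes, Cenph changed by −4.07, Cenpm by −3.61, Cenpn by −2.37 and Cenpk by −1.98, all p-adj under 0.05, and Cenpf, a large kinetochore protein of late G2 and mitosis, by −4.28. Cenph and Cenpm rest on 11 and 10 reads in all Imm_KO libraries. Cenph was at −4.69 without Imm_KO replicate 3, and Cenpm at −2.56 without replicate 2 and −4.32 without replicate 4.

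Cenpa, the histone H3 variant that marks centromeres, was the member with the highest share left after Smc4 and is given in full after its values were seen. Cenpa was at 16.8, 18.8, 19.9 and 20.6 CPM in mAM_WT replicates 1 to 4, 14.9, 14.5 and 15.04 CPM in mAM_KO replicates 1 to 3, 20.3 CPM in mAM_KO replicate 4, and 9.75, 11.6 and 14.99 CPM in Imm_KO replicates 2 to 4. The Imm_KO libraries were below those of mAM_WT and reached those of mAM_KO. The log2 fold change was −0.67 ± 0.14 (SE, p-adj = 0.00166) in Imm_KO against mAM_WT. Without Imm_KO replicate 4, the highest of the 3, Cenpa was also called in Imm_KO against mAM_KO (p-adj = 0.0193), and all 53 genes then passed.

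The 5 checkpoint genes fell in Imm_KO against mAM_WT, with a median of −3.21, and 3 of them fell by over 8-fold and 2 by under 4-fold. Bub1b (chr2:118598211-118641591) encodes BubR1, a part of the complex that inhibits the anaphase-promoting complex. Bub1b was at 134, 127, 129.9 and 109 CPM in mAM_WT replicates 1 to 4, 110.4, 99.8 and 88.2 CPM in mAM_KO replicates 1 to 3, 101 CPM in mAM_KO replicate 4, and 34.4, 38.6 and 31.9 CPM in Imm_KO replicates 2 to 4. Every Imm_KO library kept over 30 CPM, and mAM_KO reached the mAM_WT range through replicate 1 alone. Bub1b changed by −1.84 ± 0.10 (SE, p-adj = 1.18e-08) in Imm_KO against mAM_WT and by −0.33 ± 0.10 (SE, p-adj = 0.0727) in mAM_KO against mAM_WT, with a 95% interval from −0.55 to −0.12.

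Its paralog Bub1 (chr2:127801122-127831865), a kinase that recruits the other checkpoint proteins, fell further. Bub1 was at 14.7, 14.5, 15.4 and 11.4 CPM in mAM_WT replicates 1 to 4, 11.2, 11.5 and 11.7 CPM in mAM_KO replicates 1 to 3, 11.2 CPM in mAM_KO replicate 4, and 1.16, 0.719 and 0.604 CPM in Imm_KO replicates 2 to 4. The mAM_KO libraries lay between the lowest mAM_WT library and the other three or just below that lowest one, and the Imm_KO libraries were near 1 CPM. Bub1 changed by −4.12 ± 0.22 (SE, p-adj = 1.04e-08) in Imm_KO against mAM_WT. Cdc20, the activator that the checkpoint restrains, changed by −3.91, Ttk, the kinase MPS1 at the head of the checkpoint, by −3.21, and Mad2l1, its soluble inhibitor, by −1.80. Ttk was at 0.268, 0.301 and 1.08 CPM in Imm_KO, and its value was −3.85 without Imm_KO replicate 4.

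The 6 genes of mitotic kinases and the chromosomal passenger complex had a median of −2.72 in Imm_KO against mAM_WT, all called. Incenp (chr19:9872296-9899551), the scaffold of the passenger complex, was the most abundant. Incenp was at 53.1, 60.6, 59.8 and 67.1 CPM in mAM_WT replicates 1 to 4, 48.7, 60.1 and 44.02 CPM in mAM_KO replicates 1 to 3, 58.03 CPM in mAM_KO replicate 4, and 24.2, 27.2 and 24.1 CPM in Imm_KO replicates 2 to 4. The Imm_KO libraries were close to each other and below all mAM libraries. The log2 fold change of Incenp was −1.25 ± 0.11 (SE, p-adj = 1.14e-06) in Imm_KO against mAM_WT.

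Birc5 (chr11:117849251-117855743), or survivin, brings the passenger complex to centromeres and fell most in this group. Birc5 was at 11.6, 12.5, 11.5 and 14.9 CPM in mAM_WT replicates 1 to 4, 13.2, 11.2 and 10.8 CPM in mAM_KO replicates 1 to 3, 13.4 CPM in mAM_KO replicate 4, and 1.22, 0.765 and 1.60 CPM in Imm_KO replicates 2 to 4. The mAM groups overlapped and the Imm_KO libraries were well below both. Its log2 fold change was −3.46 ± 0.23 (SE, p-adj = 7.13e-08) in Imm_KO against mAM_WT. The kinase Aurkb changed by −2.76, its partner Cdca8 (borealin) by −2.74, Aurka, which acts at spindle poles, by −2.51, and Plk1, which acts from mitotic entry to cytokinesis, by −2.70.

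Sister chromatids are held together by cohesin until separase cuts it, and shugoshins shield centromeric cohesin before that. The 3 genes of this step fell in Imm_KO against mAM_WT, with a median of −3.55. Espl1 (chr15:102296266-102324357), which encodes separase, was at 17.3, 19.6, 21.1 and 20.6 CPM in mAM_WT replicates 1 to 4, 12.3, 17.4 and 12.99 CPM in mAM_KO replicates 1 to 3, 15.6 CPM in mAM_KO replicate 4, and 1.22, 2.25 and 1.71 CPM in Imm_KO replicates 2 to 4. The Imm_KO libraries were the lowest, and mAM_KO overlapped mAM_WT through replicate 2 alone. Espl1 changed by −3.55 ± 0.20 (SE, p-adj = 1.82e-08) in Imm_KO against mAM_WT and by −0.48 ± 0.20 (SE, p-adj = 0.173) in mAM_KO against mAM_WT.

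Sgo1 (chr17:53674786-53689333), the mitotic shugoshin, was at 4.002, 4.36, 5.80 and 3.95 CPM in mAM_WT replicates 1 to 4, 5.01, 4.44 and 2.80 CPM in mAM_KO replicates 1 to 3, 4.24 CPM in mAM_KO replicate 4, and 0.328, 0.209 and 0.394 CPM in Imm_KO replicates 2 to 4. All Imm_KO libraries were under 1 CPM, and the mAM groups overlapped. Sgo1 changed by −3.90 ± 0.33 (SE, p-adj = 7.07e-07) in Imm_KO against mAM_WT, from 16 reads in all Imm_KO libraries. Sgo2a, the second shugoshin, changed by −2.60, and part of its exons overlap Kctd18 on the other strand.

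Genes of spindle assembly and cytokinesis had a median of −3.33 in Imm_KO against mAM_WT, and all 8 fell. Anln (chr9:22332012-22389188) encodes anillin, which links actin, myosin and septins in the cleavage furrow. Anln was at 78.1, 77.99, 78.2 and 68.4 CPM in mAM_WT replicates 1 to 4, 66.2, 77.4 and 65.1 CPM in mAM_KO replicates 1 to 3, 60.2 CPM in mAM_KO replicate 4, and 5.16, 6.98 and 7.06 CPM in Imm_KO replicates 2 to 4. The Imm_KO libraries formed a narrow low cluster, and the mAM_WT libraries were almost equal but for replicate 4. Anln changed by −3.58 ± 0.12 (SE, p-adj = 1.67e-10) in Imm_KO against mAM_WT.

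Nusap1 (chr2:119618298-119651244), which bundles spindle microtubules near chromatin, fell most in the group. Nusap1 was at 18.3, 22.6, 26.3 and 16.6 CPM in mAM_WT replicates 1 to 4, 16.1, 25.5 and 13.8 CPM in mAM_KO replicates 1 to 3, 15.1 CPM in mAM_KO replicate 4, and 1.28, 1.37 and 0.972 CPM in Imm_KO replicates 2 to 4. Libraries spread widely in both mAM groups, and the Imm_KO libraries stayed near 1 CPM. Nusap1 changed by −4.11 ± 0.23 (SE, p-adj = 1.53e-08) in Imm_KO against mAM_WT. Ckap2l changed by −3.78, Prc1, which crosslinks midzone microtubules, by −3.59, Hmmr by −3.09, Tpx2, which activates Aurora A, by −3.01, and Ect2, which switches on RhoA for cytokinesis, by −2.63. Ckap2l was at 2.29, 0.719 and 1.024 CPM in Imm_KO and changed by −4.25 without replicate 2. Racgap1, the partner of Kif23 in centralspindlin, had the smallest change, −0.96.

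The condensin and mitotic chromosome genes had the smallest median fall after the kinase group, −2.76, with all 7 called, and held both a gene near the bottom of the range and the one at its top. Smc4 (chr3:69004738-69034623), an ATPase subunit of both condensins, was at 135, 126, 131 and 108 CPM in mAM_WT replicates 1 to 4, 152, 171 and 142 CPM in mAM_KO replicates 1 to 3, 131 CPM in mAM_KO replicate 4, and 81.8, 77.1 and 85.5 CPM in Imm_KO replicates 2 to 4. Smc4 was lowest in Imm_KO, and mAM_KO replicates 1 to 3 were above all mAM_WT libraries while replicate 4 was not. Smc4 changed by −0.61 ± 0.09 (SE, p-adj = 9.27e-05) in Imm_KO against mAM_WT and by 0.31 ± 0.09 (SE, p-adj = 0.0633) in mAM_KO against mAM_WT, where the 95% interval was from 0.12 to 0.51.

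Top2a (chr11:98992943-99024189), the topoisomerase that untangles sister chromatids, was at 84.4, 95.05, 107 and 76.4 CPM in mAM_WT replicates 1 to 4, 84.5, 95.95 and 73.3 CPM in mAM_KO replicates 1 to 3, 75.7 CPM in mAM_KO replicate 4, and 3.61, 4.11 and 7.54 CPM in Imm_KO replicates 2 to 4. The mAM groups overlapped, and Imm_KO replicate 4 was above the other Imm_KO libraries. Its log2 fold change was −4.22 ± 0.21 (SE, p-adj = 5.15e-09) in Imm_KO against mAM_WT. Mki67, the coat protein of mitotic chromosomes known as the Ki-67 antigen, had 20.8, 18.5 and 16.6 CPM in the Imm_KO libraries and 145, 157, 174 and 143 CPM in those of mAM_WT, a log2 fold change of −3.05 ± 0.10 (SE, p-adj = 1.30e-10). In mAM_KO, Mki67 was at 134, 160 and 141 CPM in replicates 1 to 3 and 129 CPM in replicate 4. It changed by −0.09 ± 0.10 (SE, p-adj = 0.595) in mAM_KO against mAM_WT. The study itself reported higher proliferation of RXR-deficient mature AMs by BrdU labelling and by Ki-67 and DAPI staining. Cell staining and bulk RNA are unlike measures, and they were not compared here. Of the condensin genes, Ncaph changed by −3.01, Ncapg by −2.76, Ncapd2 by −2.39 and Smc2 by −1.31.

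**Figure D4:**
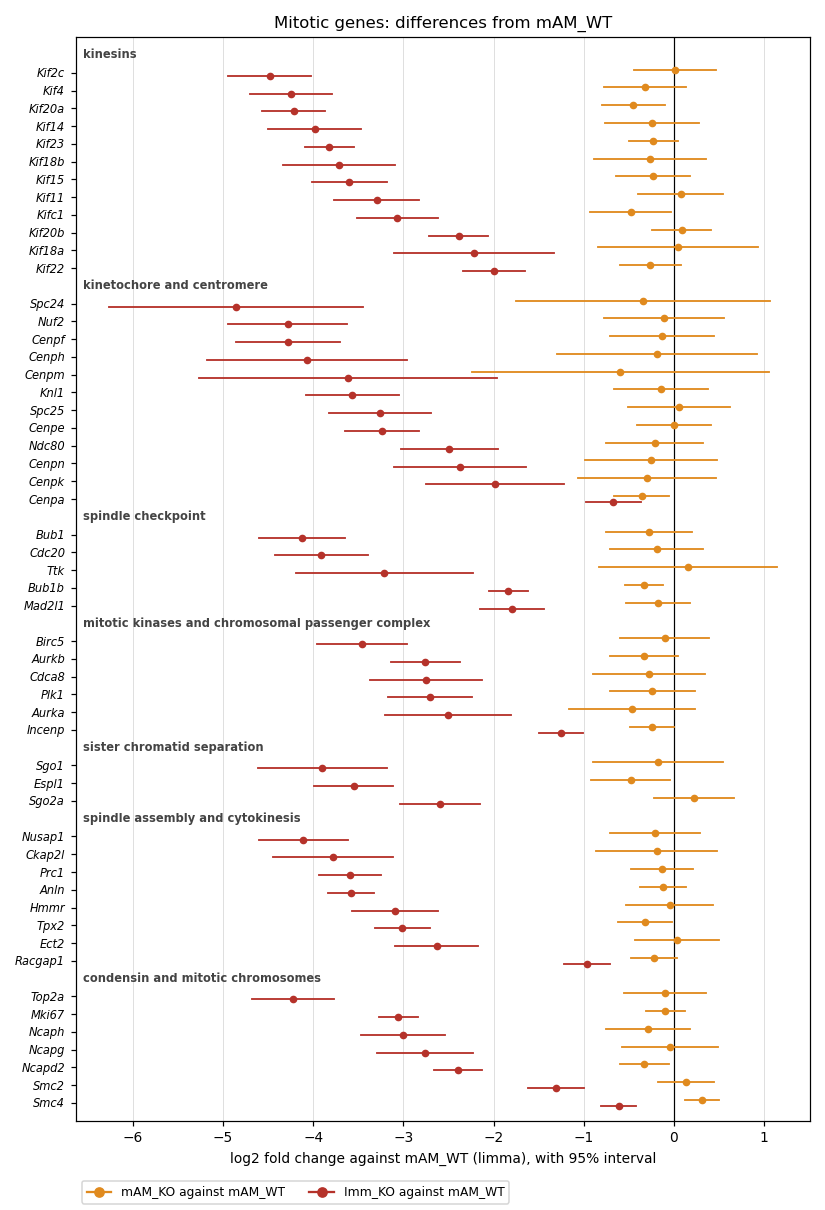
Log2 fold change of each gene against mAM_WT from limma, with its 95% interval, for Imm_KO (red) and mAM_KO (orange), in 10 libraries. The red points run from −4.86 (Spc24) to −0.61 (Smc4) and no red interval reaches 0, while 44 of the 53 orange intervals hold 0.

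Genes of the same complex did not fall to the same extent. Among the condensin genes, those found only in condensin I, Ncapg, Ncapd2 and Ncaph, changed by −3.01 to −2.39 in Imm_KO against mAM_WT. The shared subunits changed by −1.31 (Smc2) and −0.61 (Smc4), and the 3 genes of condensin II by −0.69 (Ncapd3), −0.35 (Ncapg2) and −0.32 (Ncaph2), all 3 called. Per kilobase of exon, the level of Ncapd2 stood at 0.296 to 0.434 of Smc4 in mAM_WT, 0.230 to 0.350 in mAM_KO with replicate 4, and 0.0978 to 0.124 in Imm_KO.

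The centralspindlin pair parted in the same way. Kif23 over Racgap1, per kilobase, was 1.17 to 1.40 in mAM_WT and 1.12 to 1.29 in mAM_KO, against 0.161 to 0.186 in Imm_KO, so the first was above its partner in every mAM library and below it in every Imm_KO library. Aurkb over Incenp was 0.322 to 0.457 in mAM_WT and 0.335 to 0.380 in mAM_KO, against 0.117 to 0.154 in Imm_KO. Bub1 over Bub1b was 0.102 to 0.116 in mAM_WT and 0.0995 to 0.130 in mAM_KO, against 0.0183 to 0.0332 in Imm_KO. In these ratios the mAM groups overlapped and Imm_KO lay below both. Over Smc4, Ncaph and Smc2 gave the same order, while for Ncapg the mAM groups did not overlap, at 0.0700 to 0.0976 in mAM_WT and 0.0609 to 0.0693 in mAM_KO, against 0.0122 to 0.0255 in Imm_KO. Cenpf over Cenpa was 0.334 to 0.482 in mAM_WT and 0.310 to 0.624 in mAM_KO, against 0.0267 to 0.0446 in Imm_KO. The ratios were chosen after the fold changes were seen.

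**Figure D5:**
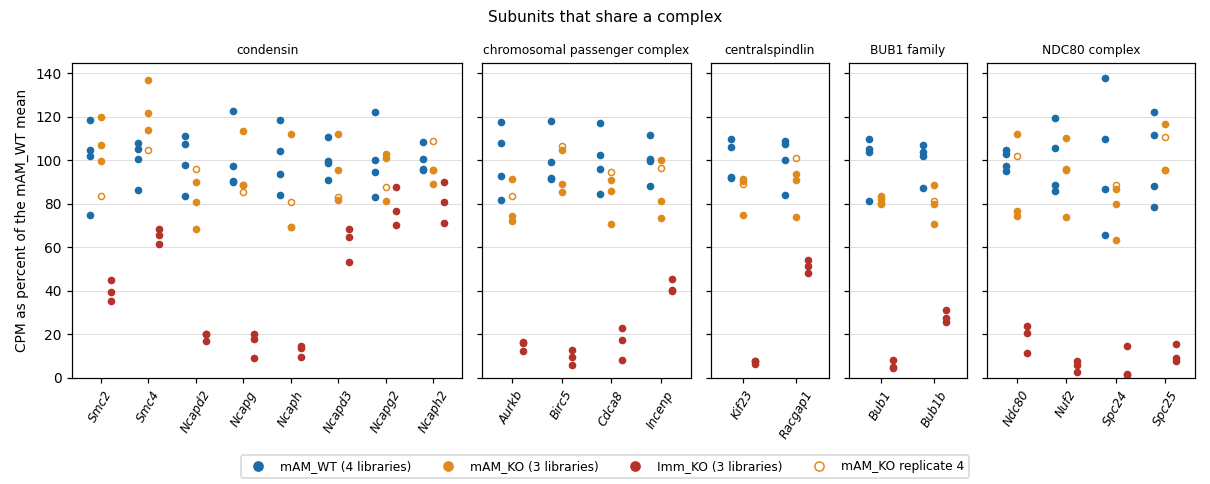
CPM of each gene as a percent of its mAM_WT mean (vertical axis from 0) in each library, for subunits that share a complex and for Bub1 with its paralog Bub1b. In Imm_KO (red), Smc4 kept 65.2% and Racgap1 51.2% of the mAM_WT mean, against 7.09% for Kif23 and 5.92% for Bub1, while mAM_KO (orange) stayed near the mAM_WT points (blue).

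Per kilobase of exon, the levels in mAM_WT also differed by gene. The highest means were those of Bub1b at 29.2 CPM per kilobase, Smc4 at 23.99, Mki67 at 15.4, Incenp at 13.9 and Top2a at 10.1, against a median of 2.70 over the 53 genes and the lowest level, 0.425, for Cenpk. In Imm_KO the order changed, with Smc4 at 15.6, Bub1b at 8.18 and Incenp at 5.81 CPM per kilobase ahead of Smc2 at 3.30 and Racgap1 at 2.31, and Mki67 at 1.85 and Top2a at 0.564. These levels use the union of all exons in GENCODE vM21, and exons of other genes overlap some members there. On the other strand 13 members overlap another gene, by 11 to 2455 bases, the longest being those of Sgo2a, Kif20a, Ncapg, Prc1 and Kif4. On the same strand, Ncapd2 overlaps Scarna10 by 237 bases and Top2a overlaps Gm23451 by 122 bases, so levels and ratios of these genes are uncertain to that extent.

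In mAM_KO against mAM_WT, none of the 53 genes was called by limma, where 2.25% of all genes tested were called higher and 2.59% lower. The median was −0.21, from −0.59 (Cenpm) to 0.31 (Smc4), with 43 genes below 0 and 10 above, against −0.00 over all genes tested. At an unadjusted p under 0.05 there were 9 of the 53 genes, against 23.6% of all genes tested. edgeR and limma-voom called 0, and DESeq2 called 3, Smc4 higher (p-adj = 0.0204) and Bub1b (p-adj = 0.0254) and Kif20a (p-adj = 0.0496) lower. Of all 12889 genes tested, edgeR called 566, limma-voom 528 and DESeq2 1368. With all 11 libraries limma called 0 of the 53 genes and 337 of all 12932 genes tested, and the median of the 53 was −0.17. The 95% interval held 0 in 44 genes and lay within −1 and 1 in 47, which bounds the change of each of the 47 to less than 2-fold in either direction, interval by interval.

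The mAM groups overlapped in most of the genes. Kif18b, Kif20a, Kif23, Kifc1, Cenpa and Tpx2 were lower in mAM_KO replicates 1 to 3 than in every mAM_WT library, and only Kif23 kept this with replicate 4. Of all genes tested, 11.2% were lower in this way with replicates 1 to 3 and 4.16% with replicate 4. Smc4 was the single gene above mAM_WT in replicates 1 to 3, and none was with replicate 4, against 8.92% and 3.73% of all genes tested. mAM_KO replicate 4 lay within the mAM_WT range for 30 genes, below it for 20 and above it for 3. Within a group, many members shared the order of the libraries. mAM_WT replicate 3 was the highest of its group in 34 genes, and replicates 1 and 4 were the lowest in 25 and 26. In mAM_KO, replicate 3 was the lowest in 28 genes and replicate 2 the highest in 27.

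Other genes of cell division, listed by role with earlier results of these data known, showed where the fall in Imm_KO was smaller. Of 22 other kinetochore and centromere genes in the table, 19 were called lower in Imm_KO against mAM_WT, with a median of −1.30, led by Ska1 (−4.06) and Oip5 (−3.54). All 9 other checkpoint genes were called lower with a median of −0.62, led by Kntc1 (−5.00) and Zwilch (−2.36), both of the complex that brings dynein to kinetochores. Of 31 other spindle and cytokinesis genes, 20 were called lower and 2 higher, with a median of −0.71, led by Fam83d (−5.93) and Pbk (−5.02).

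The anaphase-promoting complex and cohesin, which also act outside mitosis, had smaller medians. Of 17 genes of the anaphase-promoting complex, 8 were called lower and 1 higher (median −0.22), led by its ubiquitin-conjugating enzyme Ube2c (−4.52) and by Fzr1 (−0.65). Of 13 cohesin genes, 5 were called lower and 1 higher (median −0.13), led by Esco2 (−3.95) and Cdca5 (−2.48), which establish or protect cohesion in S and G2 phases. In Imm_KO against mAM_WT, 25.3% of all genes tested were called lower and 22.8% higher. That is the background for the counts of all these lists in that comparison.

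Genes of the earlier cell cycle fell too. Of 17 genes of replication licensing and forks, 16 were called lower in Imm_KO against mAM_WT (median −1.43), led by Orc1 (−3.91) and Mcm10 (−3.78). Of 12 cyclins with Cdk1, 10 were called lower and 1 higher (median −1.91), led by Ccnb2 (−5.04) and Ccnb1 (−4.83), the B-type cyclins of mitotic entry. Of 18 cell cycle transcription factors, 7 were called lower and 2 higher (median −0.19), led by E2f8 (−3.62) and E2f7 (−3.51). In mAM_KO against mAM_WT, the replication list held 4 genes called lower, Mcm3 (−0.73), Mcm5 (−0.82), Mcm7 (−0.44) and Cdt1 (−0.68), named after their values were seen, and its median was −0.44. Of all genes tested in mAM_KO against mAM_WT, 2.59% were called lower and 2.25% higher. With all 11 libraries 2 of the 17 were called, and 337 of all 12932 genes tested. In the same comparison the other lists held 0 or 1 call each, and whether the replication genes differ from the 53 mitotic genes was not tested.

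The fall in Imm_KO can be set beside the promoter element. The 34 genes with TTTGAA in the window had a median log2 fold change of −3.15 in Imm_KO against mAM_WT and the 13 without it −3.46. Of the genes with a promoter that fell by under 4-fold, Kif22, Cenpa, Bub1b, Racgap1 and Smc2 held a match and Cenpk and Mad2l1 held none. Of those that fell by over 16-fold, Kif2c, Kif4, Cenpf and Top2a held a match and Cenph, Nuf2, Bub1 and Nusap1 held none. Among the other lists, TTTGAA was held by 2 of 3 genes of condensin II with a promoter, 4 of 8 other checkpoint genes, 6 of 13 cell cycle transcription factors, 9 of 25 other spindle and cytokinesis genes, 6 of 21 other kinetochore genes, 3 of 12 replication genes, 2 of 8 cyclins with Cdk1, 2 of 8 cohesin genes and 3 of 16 genes of the anaphase-promoting complex. Condensin II had a median of −0.35 in Imm_KO against mAM_WT, and the medians of the other lists are given above. Several lists hold few genes, other forms of the element were not searched, and whether it bears on the fall was not tested. These shares describe sequences, and no test was run on them.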

How the data were processed

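RNA of sorted AMs was read as single-end reads of 60 bases from a directional library kit. Labels and methods differ on the cell source (lung digestion or lavage) and the sequencer. According to the methods and processing notes, Cutadapt was used for trimming, RSEM 1.3.1 for mapping to the GRCm38 transcriptome and for expected counts, and limma for TMM scaling, and only genes that reached 1 CPM in 3 or more samples were kept. The strand setting of the counting is not stated. The CPM deposited by the authors are reads plus 0.5 on TMM-scaled library sizes, and whole reads came back within 0.01 for 100% of the values. Their log2, with no pseudocount, was fitted in limma 3.58.1 (R 4.3.3) with 3 group means, a variance trend and Benjamini-Hochberg adjustment over 12889 genes in 10 libraries, after tests on simulated data. The alternatives were all 11 libraries, added pseudocounts (0.1 or 1), other filters (none, 5 CPM), other scalings (median-ratio, no TMM factor, quantile), fits of 2 groups, no variance trend, edgeR 4.0.16, DESeq2 1.42.0 and limma-voom on recovered reads, a replicate block, a 1.5-fold minimum, a p-adj threshold of 0.1, and single libraries left out. Given in every library are, per role, the gene of highest mean and that of largest change in Imm_KO against mAM_WT (at 1 CPM or more on average in one group), or the next one if these coincide, and any member called in mAM_KO against mAM_WT or of opposite sign. At most 2 called genes per other list are named by rule. The members and all lists were chosen with earlier results of these data known. The sum over the monocyte marker list is not reported here.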

Additional observations from a re-analysis of the deposited data

Results flagged for a closer look

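In groups of 4 libraries, 30 sets of values were tested for a library far from the rest of its group by Dixon's rule. The sets were the genes given in full by rule and the summed CPM of the members. Genes given outside that rule, such as Cenpa, were not among them. Chance flags about 1 in 20 of such sets, and 2 stood out. Anln was at 68.4301 CPM in mAM_WT replicate 4, against 77.99 to 78.20 CPM in the other mAM_WT libraries. Kif23 was at 34.0476 CPM in mAM_KO replicate 3, against 40.48 to 41.53 CPM in the other mAM_KO libraries, replicate 4 included. Both genes were called lower in Imm_KO in every fit tried, and neither was called in mAM_KO against mAM_WT.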

How the results depend on the processing

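All 53 genes in Imm_KO against mAM_WT and all but Cenpa in Imm_KO against mAM_KO were called under every alternative that tested them. At the filter of 5 CPM, 47 genes were tested, of which 47 and 46 were called. The filters count libraries of any group, so a gene can pass through the mAM libraries alone. That was so at 1 CPM for the 11 genes under 1 CPM in every Imm_KO library. The filter asks for 3 libraries, and 28 genes were at 1 CPM or more in every Imm_KO library. Only these 28 would pass without the mAM libraries. A stricter filter is therefore no independent check of the fall. Cenpa passed against mAM_KO without Imm_KO replicate 4. Since low values weigh more on the log2 scale, the median for Imm_KO against mAM_WT was −3.02 with a pseudocount of 0.1 and −2.29 with 1. Against mAM_KO it was −2.21 with a pseudocount of 1 and −3.28 after quantile normalization, and the cause of the latter was not tested. In mAM_KO against mAM_WT, the count of 0 became 3 with DESeq2 and 2 at a threshold of 0.1, and lay between 0 and 1 when single libraries were left out (1 without mAM_WT replicate 1, Smc4, or without mAM_WT replicate 4, Bub1b), and the cause was not tested. Of all 12889 genes tested, 624 were called in the main fit, 1368 with DESeq2 and 1454 at the threshold of 0.1. Without mAM_WT replicate 1, 861 of 12831 genes were called, and without mAM_WT replicate 4, 355 of 12798. With the replicate block, the counts were 0, 53 and 52 and the medians −0.20, −3.23 and −3.16. The numbers were not taken to pair the libraries, since deviations of same-numbered libraries correlated from −0.127 to 0.261 and not all above 0.1. In mAM_KO against mAM_WT some values near 0 changed sign. Cenpe was at 0.00 with median-ratio scaling, edgeR and DESeq2, at 0.01 with no TMM factor, quantile normalization and limma-voom, at 0.08 with the replicate block, and from −0.09 to 0.07 with single libraries left out. With the replicate block, Spc24 was at 0.12 and Birc5 at 0.02. With single libraries left out, Kif2c ranged from −0.05 to 0.10, Sgo1 from −0.34 to 0.08 and Top2a from −0.19 to 0.00. Depth limits the lowest genes most, with 10 to 16 reads over all Imm_KO libraries for Cenpm, Cenph, Spc24 and Sgo1.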
